A study of Homo sapiens with 12 samples.

Results

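The genes described here encode transcription factors that are made as membrane proteins of the endoplasmic reticulum (ER) and released by proteolysis, with an escort protein and a protease of the same route. A list of 10 gene symbols fixed the membership: CREB3L3, CREB3, CREB3L2, CREB3L4, ATF6, ATF6B, SREBF1, SREBF2, SCAP and MBTPS1. The list was chosen by the measured fall of CREB3L3 after knockdown in both cell lines, and the other genes were taken for their place in the route. The knockdown values of CREB3L3 are therefore a description with no test. Of the 10 genes, 8 were found in the expression tables, and CREB3L4 and SCAP were not analysed here.

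The study asked what the long noncoding RNA FASRL does in liver cancer cells, and compared cells transfected with an siRNA against FASRL (siFASRL) with cells given a negative control siRNA (siNC). RNA-seq was performed 48 h after transfection in HepG2 and LM3, both established human liver cancer cell lines. The 4 groups were HepG2 siNC, HepG2 siFASRL, LM3 siNC and LM3 siFASRL, with 3 replicates each and 12 libraries in all. The study describes the repetition of its cell line experiments in general terms, and the sample labels do not say whether these replicates were separate cultures, so p-values measure only the spread between these libraries, which may be technical. Values are the deposited RSEM expression levels, and their unit is not given. They were taken to be scaled by gene length, which was not tested. Comparisons of levels between different genes rest on this. Depth is unknown because the values are not counts. FASRL itself was not analysed here, so the knockdown of the target was not checked in these libraries. The study reports its own check of knockdown efficiency in both lines.

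Markers of the liver cell were checked in both lines. Of 12 hepatocyte markers 10 were listed, and all 10 had a mean of at least 1 in both HepG2 groups. Their summed level in the HepG2 siNC libraries was 4744, 4699 and 4282, and in the HepG2 siFASRL libraries 2541, 2563 and 2605, with SERPINA1 the most abundant. In LM3 siNC the same sum was 14.8, 19.4 and 17.5, and in LM3 siFASRL it was 7.55, 7.75 and 6.38. HNF4A, a liver transcription factor, was the most abundant of them in LM3, and ALB (albumin) averaged 0.360 in LM3 siNC against 815 in HepG2 siNC. LM3 thus carried its liver label with most hepatocyte markers near 0. Of 8 fibroblast and stellate cell markers 6 were listed, and their sum lay between 81.2 and 82.9 in HepG2 siNC and between 48.2 and 54.2 in HepG2 siFASRL. In LM3 it lay between 13.6 and 15.7 with siNC and between 5.06 and 6 with siFASRL. The most abundant was COL3A1 in HepG2 siNC, ACTA2 in HepG2 siFASRL and COL1A1 in both LM3 groups. DCN, LUM and COL3A1 averaged at most 0.0470 in LM3. Of 5 endothelial markers VWF was listed, at no more than 0.350 in any library. Of 6 immune markers CD68 and LYZ were listed, and their sum lay between 122 and 127 in HepG2 siNC and between 87.2 and 97.0 in HepG2 siFASRL. In LM3 it was higher with siFASRL, between 18.4 and 19.0 against 15.1 to 18.2 with siNC. Against their sums in HepG2, APOA2 rose from 630 to 757 (log2 fold change 0.27, adjusted p = 0.0149) and ACTA2 from 10.7 to 17.4 (0.65, adjusted p = 6.81e-05). CD68 did not pass in HepG2 (41.1 and 44.9, 0.11, adjusted p = 0.374), and LYZ fell from 82.7 to 46.1. In LM3 CD68 rose (0.23, adjusted p = 0.0255) and LYZ fell (-0.30, adjusted p = 0.0391). The hepatocyte and fibroblast sums in both lines and the immune sum in HepG2 fell together with several of the genes described below, and their part in those results was not tested. In these bulk libraries, fewer cells with a transcript and less RNA per cell cannot be told apart.

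As background, these factors are held in the ER membrane and travel in transport vesicles to the Golgi, where the site-1 protease (encoded by MBTPS1) and then the site-2 protease cut them and free the part that enters the nucleus. Sterols hold back the SREBP proteins through SCAP and INSIG, whereas ATF6 leaves the ER when unfolded proteins accumulate. In liver, SREBF1 is known for fatty acid synthesis, SREBF2 for cholesterol synthesis and uptake, ATF6 for ER chaperones, and CREB3L3 (CREBH) for triglyceride metabolism, hepcidin and acute phase genes.

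The RefSeq promoter table held all 8 listed members. The promoters of CREB3L3, SREBF1 and SREBF2 are shown because these are the members with the largest falls, and each runs from 250 bases before to 50 bases after the annotated start, on the gene's own strand, in build GRCh38.p14. CREB3L3 is on chromosome 19 (chr19:4153381-4153680, plus strand), SREBF1 on chromosome 17 (chr17:17836937-17837236, minus strand) and SREBF2 on chromosome 22 (chr22:41832855-41833154, plus strand). Capitals mark matches, on either strand, to any of 6 motifs: the sterol response element core TCACCCCA, the E-box CACGTG, the CCAAT box CCAAT, the ER stress response element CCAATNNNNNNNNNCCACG (which contains a CCAAT box), and the cAMP response element as its core TGACG or as the palindrome TGACGTCA (which contains the core).
CREB3L3: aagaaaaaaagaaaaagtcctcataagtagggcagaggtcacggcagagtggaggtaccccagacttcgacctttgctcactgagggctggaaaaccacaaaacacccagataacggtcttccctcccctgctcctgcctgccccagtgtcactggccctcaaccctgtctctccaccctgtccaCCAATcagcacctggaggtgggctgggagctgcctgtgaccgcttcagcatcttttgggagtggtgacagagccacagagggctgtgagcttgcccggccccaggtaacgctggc
SREBF1: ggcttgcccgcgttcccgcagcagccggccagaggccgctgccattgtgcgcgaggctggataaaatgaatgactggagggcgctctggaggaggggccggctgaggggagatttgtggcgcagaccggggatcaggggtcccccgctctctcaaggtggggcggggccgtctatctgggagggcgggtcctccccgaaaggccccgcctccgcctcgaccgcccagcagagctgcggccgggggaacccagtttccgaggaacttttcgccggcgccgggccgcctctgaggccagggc
SREBF2: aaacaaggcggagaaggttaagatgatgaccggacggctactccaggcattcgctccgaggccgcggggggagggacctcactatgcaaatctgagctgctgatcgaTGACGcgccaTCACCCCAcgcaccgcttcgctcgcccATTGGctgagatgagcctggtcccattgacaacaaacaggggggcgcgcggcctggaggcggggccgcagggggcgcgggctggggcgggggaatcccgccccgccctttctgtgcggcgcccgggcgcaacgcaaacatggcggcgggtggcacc

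Among the 27305 RefSeq promoters of the same length, 1.47% held TCACCCCA, 7.43% the E-box, 35.7% CCAAT, 0.0806% the ER stress response element, 25% TGACG and 1.98% the palindrome. The SREBF2 window held TCACCCCA starting 133 bases before the start, with TGACG starting at 143 bases and a CCAAT box on the other strand at 106 bases. The CREB3L3 window held 1 CCAAT box, 65 bases before the start, and no other motif. The SREBF1 window held none of the 6. Other starts of a gene, where there are any, were not searched. Among the other members, CREB3L2 held the palindrome 179 bases before its start and 4 matches to CCAAT, of which a pair share bases. ATF6 held TGACG at 113 and at 44 bases, CREB3 held it at 94 bases, ATF6B held an E-box at 102 bases and a CCAAT box at 140 bases, and MBTPS1 held none. The share of G and C was 71.0% in the SREBF1 window, 68.0% in SREBF2 and 58.0% in CREB3L3, with a median of 58.3% over all promoters. A match is a description of the letters and shows neither binding nor use.

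Both SREBF genes also host a microRNA in an intron, on their own strand. MIR33A lies in SREBF2 and MIR33B in SREBF1, which also holds MIR6777 on its own strand. The mature 5p sequences of the miR-33 pair are shown because host gene and microRNA may share a transcript. In GRCh38.p14 miR-33a-5p is at chr22:41900949-41900969 (plus strand) and miR-33b-5p at chr17:17813897-17813916 (minus strand). Capitals mark the seed, bases 2 to 8, which is the same 7 letters in both. Neither was measured here, nor was MIR6777.
miR-33a-5p: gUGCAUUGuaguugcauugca
miR-33b-5p: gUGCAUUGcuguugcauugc

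CREB3L3 (NCBI gene 84699) encodes a liver and gut factor of the CREB3 family. Its value was 7.13, 5.53 and 7.13 in the HepG2 siNC libraries and 1.31, 1.13 and 1.2 in the HepG2 siFASRL libraries. In LM3 it was 25.1, 19.8 and 19.2 with siNC, and 2.68, 3.35 and 2.38 with siFASRL. In both lines every siFASRL library lay below every siNC library, and the LM3 siNC libraries stood above all others. The mean fell from 6.60 ± 0.924 (SD, n = 3) to 1.21 ± 0.0910 in HepG2, which is 18.4% of siNC, and from 21.4 ± 3.20 to 2.80 ± 0.497 in LM3, which is 13.1%. The log2 fold change, siFASRL minus siNC on log2(value + 1), was -1.77 (standard error, SE, 0.0882) in HepG2 and -2.55 (SE 0.118) in LM3. The added 1 understates the change of a gene with values as low as these, and with 0.1 added the log2 fold changes were -2.34 and -2.89. Ordered from the lowest log2 fold change upward, CREB3L3 stood at place 70 of 8144 genes in HepG2 and at place 2 of 7483 in LM3. These values chose the gene and carry no test.

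**Figure D1:**
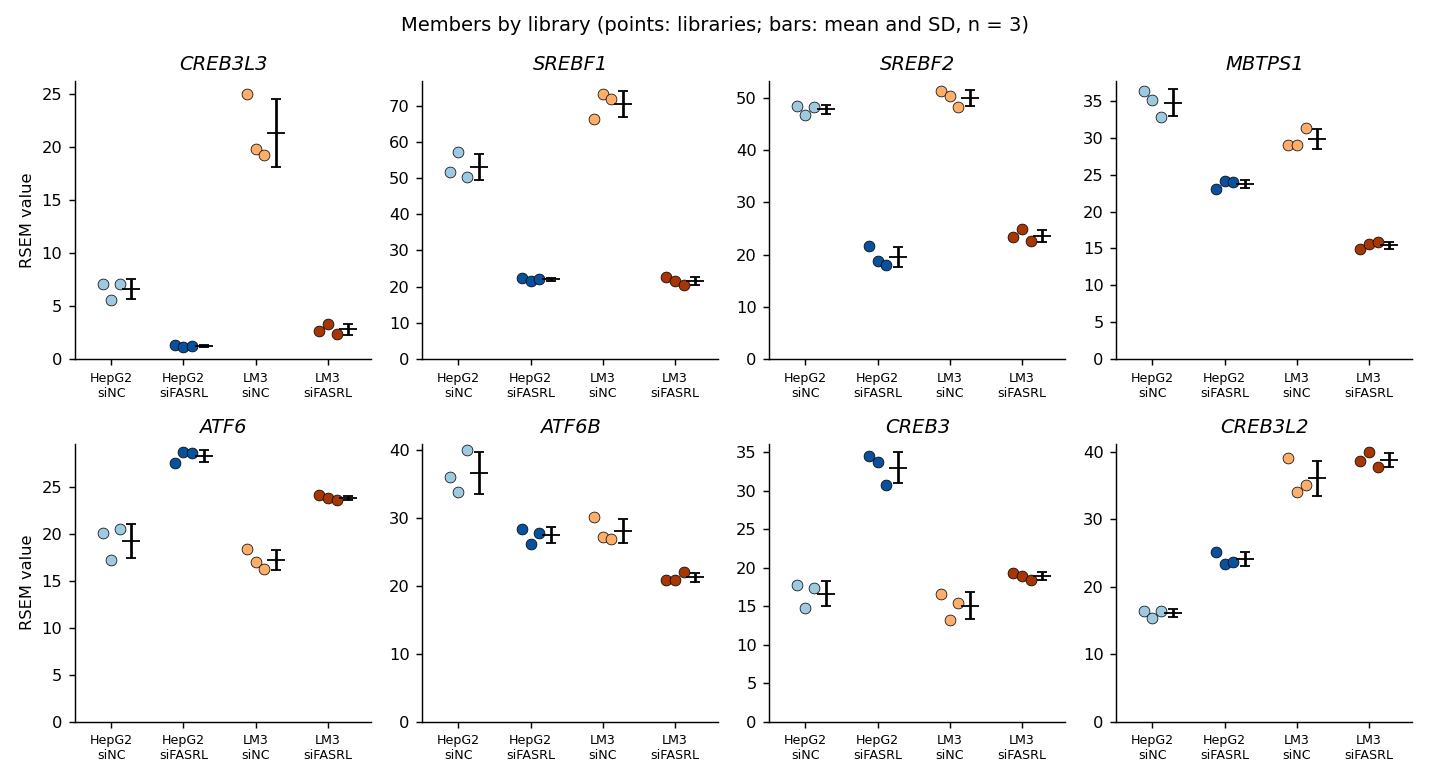
RSEM value of each of the 8 members (panels, axes from 0) in the 12 libraries, grouped by line and siRNA. Points are libraries and bars are the mean and SD of 3. In the SREBF1 panel the HepG2 siFASRL points lie near 22 and the siNC points at 50.3 or above.

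SREBF1 (NCBI gene 6720) encodes SREBP-1. With siNC its value was 51.7, 57.2 and 50.3 in HepG2 and 66.2, 73.1 and 71.9 in LM3. With siFASRL it was 22.3, 21.7 and 22 in HepG2 and 22.6, 21.5 and 20.5 in LM3. The siFASRL libraries of both lines sat within a narrow band, far below every siNC library. SREBF1 fell to 41.4% of siNC in HepG2, with a log2 fold change of -1.23 (SE 0.0622, 95% confidence interval -1.37 to -1.09, limma adjusted p = 1.77e-07). In LM3 it fell to 30.6%, with a log2 fold change of -1.66 (SE 0.0607, 95% confidence interval -1.80 to -1.52, limma adjusted p = 2.52e-07). Exons of RAI1, on the other strand, share 556 bases with SREBF1 exons in GENCODE, and reads there cannot be told apart unless strand was used. RAI1 averaged 12.1 with siNC and 13.1 with siFASRL in HepG2, and 15.2 and 14.3 in LM3.

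SREBF2 (NCBI gene 6721) encodes SREBP-2. Its values with siNC were 48.4, 46.8 and 48.2 in HepG2 and 51.3, 50.3 and 48.3 in LM3. With siFASRL they were 21.7, 18.7 and 18.1 in HepG2 and 23.3, 24.9 and 22.5 in LM3. All 6 siFASRL libraries were below all 6 siNC libraries. SREBF2 fell to 40.8% of siNC in HepG2 (log2 fold change -1.26, SE 0.0718, 95% confidence interval -1.42 to -1.09, limma adjusted p = 3.35e-07). In LM3 it fell to 47.2% (log2 fold change -1.05, SE 0.0559, 95% confidence interval -1.18 to -0.93, limma adjusted p = 1.17e-06). With median-of-ratios scaling of the libraries the LM3 value was -0.94, which is short of a log2 fold change of -1. The antisense gene SREBF2-AS1 shares 280 exon bases with SREBF2 and was not used here. The promoter with the sterol response element core, shown above, is that of SREBF2.

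The ratio of SREBF1 to SREBF2 within a library was 1.11 ± 0.0970 (SD, n = 3) in HepG2 siNC and 1.13 ± 0.0990 in HepG2 siFASRL, and these ranges overlapped. In LM3 it was 1.41 ± 0.105 with siNC and 0.916 ± 0.0540 with siFASRL, with every siNC library above 1 and every siFASRL library below 1. SREBF1 was thus the more abundant of the pair in LM3 siNC and the less abundant in LM3 siFASRL.

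MBTPS1 (NCBI gene 8720) encodes the site-1 protease, which makes the opening cut in this route. Its values were 36.4, 35.2 and 32.8 in HepG2 siNC against 23.1, 24.2 and 24.0 in HepG2 siFASRL. In LM3 they were 29.1, 29.1 and 31.4 with siNC and 14.9, 15.6 and 15.8 with siFASRL. The groups did not overlap in either line. MBTPS1 fell to 68.2% of siNC in HepG2 (log2 fold change -0.53, SE 0.0590, limma adjusted p = 2.04e-05) and to 51.8% in LM3 (log2 fold change -0.91, SE 0.0541, limma adjusted p = 1.97e-06). Neither value reached a log2 fold change of -1. The gene of the site-2 protease, MBTPS2, was not analysed here.

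ATF6 (NCBI gene 22926) encodes ATF6 alpha, the sensor of unfolded proteins that turns on ER chaperones. It read 20.1, 17.2 and 20.5 in HepG2 siNC and 27.6, 28.8 and 28.7 in HepG2 siFASRL. In LM3 it read 18.4, 17.1 and 16.3 with siNC and 24.2, 23.8 and 23.7 with siFASRL. ATF6 was higher in every siFASRL library than in any siNC library. Its log2 fold change was 0.54 (SE 0.0716, limma adjusted p = 6.94e-05) in HepG2 and 0.45 (SE 0.0563, limma adjusted p = 0.000113) in LM3. ATF6B (NCBI gene 1388) encodes the related ATF6 beta and moved the other way. It read 36.1, 33.9 and 40.0 in HepG2 siNC and 28.5, 26.2 and 27.8 in HepG2 siFASRL, and 30.2, 27.2 and 27.0 in LM3 siNC against 20.9, 20.9 and 22.1 in LM3 siFASRL. The groups again did not overlap. The ATF6B log2 fold change was -0.40 (SE 0.0710, limma adjusted p = 0.000461) in HepG2 and -0.38 (SE 0.0597, limma adjusted p = 0.000405) in LM3. ATF6B shares 71 exon bases with TNXB and 289 with the transcript AL662884.2, both on its own strand and not used here.

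CREB3 (NCBI gene 10488), or Luman, is the founding member of the CREB3 family. It read 17.8, 14.8 and 17.4 in HepG2 siNC and 34.6, 33.8 and 30.8 in HepG2 siFASRL. In LM3 it read 16.6, 13.2 and 15.4 with siNC and 19.4, 19.0 and 18.4 with siFASRL. The groups stood far apart in HepG2 and closer, without overlap, in LM3. CREB3 rose by a log2 fold change of 0.95 (SE 0.0795, limma adjusted p = 3.25e-06) in HepG2 and of 0.31 (SE 0.0787, limma adjusted p = 0.00604) in LM3. On the other strand, TLN1 shares 61 exon bases with CREB3 and GBA2 shares 139. GBA2 was not used here, and TLN1 averaged 35.3 with siNC and 55.3 with siFASRL in HepG2, and 27.2 and 33.3 in LM3.

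CREB3L2 (NCBI gene 64764) encodes another factor of this family, known from secretory cells and cartilage. It read 16.5, 15.4 and 16.5 in HepG2 siNC and 25.2, 23.3 and 23.7 in HepG2 siFASRL. In LM3 it read 39.0, 34.1 and 35.1 with siNC and 38.6, 40.0 and 37.8 with siFASRL. The groups were apart in HepG2 and overlapped in LM3. Its log2 fold change was 0.55 (SE 0.0581, limma adjusted p = 1.47e-05) in HepG2 and 0.10 (SE 0.0621, 95% confidence interval -0.04 to 0.25, limma adjusted p = 0.157) in LM3. It passed in LM3 at 0.22 under median-of-ratios scaling, and at 0.16 without siNC replicate 1.

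**Figure D2:**
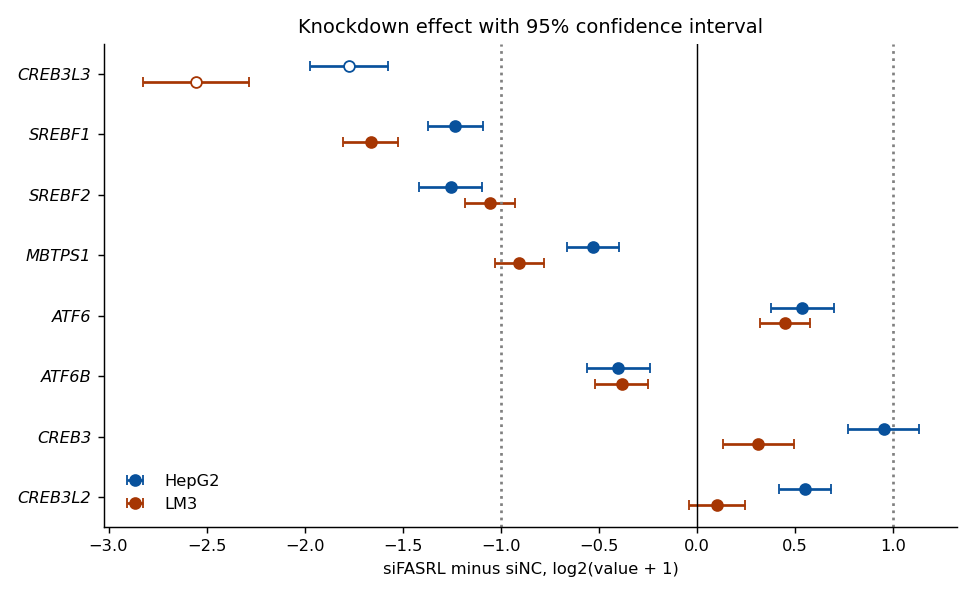
Knockdown effect of each member, siFASRL minus siNC on log2(value + 1), in HepG2 (blue) and LM3 (brown). Bars are 95% confidence intervals, dotted lines mark -1 and 1, and open points (CREB3L3) are a description without a test. SREBF1 and SREBF2 lie to the left of -1 in both lines, ATF6 lies to the right of 0 and ATF6B to the left.

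Among the 7 listed members other than CREB3L3, all of which passed the filter on low values, 4 were lower and 3 higher in HepG2 at an adjusted p under 0.05. Of all 8144 genes tested in HepG2, 44.3% were lower and 44.8% higher by the same rule. In LM3 4 of the 7 were lower and 2 higher, against 43.5% and 33.9% of 7483 genes. Of the LM3 genes that passed, 56.2% were lower, and 46.8% with median-of-ratios scaling or 48.1% with quantile normalization. Such counts lie near the background and are no result about the members. SREBF1 and SREBF2 were the 2 members that were also at or below a log2 fold change of -1, in each line. By that rule 6.79% of all genes were lower in HepG2 and 6.2% in LM3. None of the 7 members was higher by at least 1, against 3.61% of genes in HepG2 and 1.42% in LM3, while limma gave 3 and 2 members higher at an adjusted p under 0.05. The median log2 fold change of the 7 was -0.40 in HepG2 and -0.38 in LM3, against 0.102 and -0.062 over all genes tested. The median over all LM3 genes moved to 0.047 with median-of-ratios scaling, a shift of over 0.1, and no member changed its direction with it.

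The order of levels changed with the knockdown. In HepG2 siNC, SREBF1 (53.1 ± 3.62, SD, n = 3) and SREBF2 (47.8 ± 0.896) led, followed by ATF6B, MBTPS1, ATF6, CREB3, CREB3L2 and CREB3L3. The libraries of ATF6B and MBTPS1 overlapped there, as did those of ATF6 and CREB3 and of CREB3 and CREB3L2. In HepG2 siFASRL the order ran CREB3 (33 ± 2), ATF6 (28.4 ± 0.655), ATF6B, CREB3L2, MBTPS1, SREBF1, SREBF2 and CREB3L3. Overlapping neighbours were ATF6 with ATF6B, CREB3L2 with MBTPS1, and SREBF1 with SREBF2. The SREBF pair thus went from the top of the order to the places just above CREB3L3.

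In LM3 siNC, SREBF1 (70.4 ± 3.68) and SREBF2 (50 ± 1.55) led as well, followed by CREB3L2, MBTPS1, ATF6B, CREB3L3, ATF6 and CREB3. MBTPS1 overlapped ATF6B, and ATF6 overlapped CREB3. In LM3 siFASRL, CREB3L2 (38.8 ± 1.09) stood alone at the top. ATF6 (23.9 ± 0.249), SREBF2 (23.6 ± 1.2), SREBF1 (21.5 ± 1.07) and ATF6B (21.3 ± 0.690) came next, each overlapping its neighbour, and CREB3, MBTPS1 and CREB3L3 followed apart from each other. CREB3L3 was last in 3 of the 4 groups and was above ATF6 and CREB3 in LM3 siNC.

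**Figure D3:**
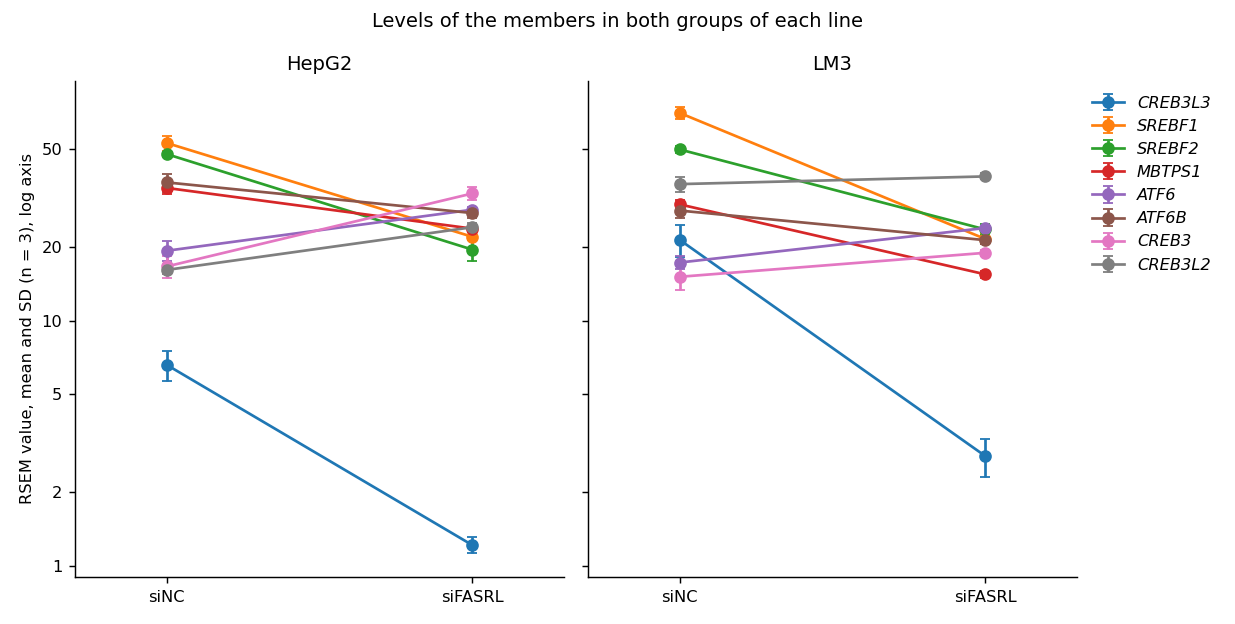
Mean RSEM value and SD (n = 3) of each member with siNC and siFASRL in HepG2 (left) and LM3 (right), on a log axis. SREBF1 and SREBF2 run down from the top in both lines, from 53.1 to 22 for SREBF1 in HepG2, and CREB3 and ATF6 run up.

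The siNC libraries compare the lines without the knockdown. The siNC values of CREB3L3 took part in its choice, so its difference between the lines is given with no test (3.24 times as high in LM3, log2 difference 1.56, SE 0.115). At an adjusted p under 0.05, 2 of the 7 other listed members were higher in LM3 and 3 were lower, against 41.5% and 42.1% of 8285 genes. With quantile normalization the share lower among the genes that passed went from 50.3% to 42.2%. CREB3L2 was 2.24 times as high (log2 difference 1.11, SE 0.0577, limma adjusted p = 5.96e-10) and SREBF1 1.33 times (0.40, SE 0.0598, adjusted p = 2.97e-05). ATF6B (-0.37, SE 0.0660, adjusted p = 0.000163) and MBTPS1 (-0.22, SE 0.0529, adjusted p = 0.00198) were lower in LM3. ATF6 was lower by little (-0.15, SE 0.0645, adjusted p = 0.0458), its libraries overlapped, and the call was lost with a pseudocount of 0.1, with either other scaling and without most single libraries. SREBF2 (0.06, SE 0.0645, 95% confidence interval -0.08 to 0.20, adjusted p = 0.380) and CREB3 (-0.13, SE 0.0838, 95% confidence interval -0.31 to 0.05, adjusted p = 0.155) did not pass. CREB3 passed without HepG2 siNC replicate 2 (-0.21) or without LM3 siNC replicate 1 (-0.20).

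Whether an effect differed between the lines was read from the interaction term of the fit of all 12 libraries. Of the 7 members other than CREB3L3, 4 passed, against 46.7% of 8285 genes. Of the genes that passed, 58.3% had the lower effect in LM3, and 47.3% with median-of-ratios scaling. SREBF1 fell further in LM3, by -0.43 (SE 0.0846, limma adjusted p = 0.00104), and so did MBTPS1, by -0.37 (SE 0.0747, adjusted p = 0.00121), or by -0.22 with quantile normalization, which still passed. CREB3 (-0.64, SE 0.119, adjusted p = 0.000697) and CREB3L2 (-0.45, SE 0.0816, adjusted p = 0.000619) had the larger rise in HepG2. SREBF2 missed the threshold (0.20, SE 0.0912, 95% confidence interval 0.01 to 0.40, adjusted p = 0.0865). It passed with quantile normalization (0.29), with median-of-ratios scaling (0.27) and without HepG2 siFASRL replicate 1 (0.28). ATF6 (-0.09, 95% confidence interval -0.29 to 0.11) and ATF6B (0.02, 95% confidence interval -0.19 to 0.22) did not pass. The CREB3L3 effects differed by -0.78 (SE 0.162), given with no test, and by -0.46 with quantile normalization and -0.55 with 0.1 added.

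Known targets and partners of these factors were taken from 8 gene lists. Each is described by its counts at an adjusted p under 0.05 and its median log2 fold change, and the background is that of all genes tested, given above. All genes are also counted for both lines together: of 7349 genes tested in both, 36.0% were lower and 29.6% higher in both.

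Sterol synthesis and uptake, the classical program of SREBP-2, had 25 genes, of which 23 were listed and tested. In HepG2 19 were lower and 2 higher, and the median log2 fold change was -0.91. In LM3 21 were lower and 1 higher, with a median of -1.14. The 19 genes lower in both lines are 82.6% of the 23 tested. MSMO1, a sterol methyl oxidase, averaged 30.9 with siNC and 7.07 with siFASRL in HepG2 (log2 fold change -1.98, SE 0.0526), and 35.0 and 6.67 in LM3 (-2.23, SE 0.0600). INSIG1, which anchors SCAP in the ER, averaged 18.4 and 4.8 in HepG2 (-1.75) and 65.4 and 14.7 in LM3 (-2.08). STARD4, a sterol carrier, went from 12.4 to 2.86 (-1.79) and from 3.79 to 0.340 (-1.84, or -3.19 with 0.1 added in place of 1), and IDI1, an isoprenoid isomerase, from 34.1 to 10.1 (-1.66) and from 50.5 to 16.5 (-1.56). In LM3 STARD4 passed the filter on low values through its siNC libraries alone, and it is among the 21 lower genes counted there. Among the exceptions, PMVK, NPC1 and CYP51A1 were named after their values were seen. PMVK, phosphomevalonate kinase, rose in both lines (0.64 and 0.31, or 0.21 in LM3 without siNC replicate 1). NPC1, which exports cholesterol from lysosomes, rose in HepG2 (0.71) and did not pass in LM3 (-0.06, adjusted p = 0.262). CYP51A1 did not pass in HepG2 (0.11, adjusted p = 0.0824), except in the fit of all 12 libraries, and fell in LM3 (-0.40). Promoters were found for 16 of the 23 genes, and of these MVK alone held TCACCCCA, shown in capitals with 12 bases on each side, at chr12:109573587-109573618 on the plus strand.
MVK: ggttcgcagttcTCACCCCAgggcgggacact

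The lipogenic targets of SREBP-1 had 16 genes, 14 of them listed and tested. In HepG2 12 were lower and 2 higher (median log2 fold change -0.93), and in LM3 12 were lower and 1 higher (median -0.82). SCD, the stearoyl-CoA desaturase, averaged 264 with siNC and 63.5 with siFASRL in HepG2 (-2.04, SE 0.0693), and 307 and 89.5 in LM3 (-1.76, SE 0.0628). FADS1 went from 48.2 to 23.8 in HepG2 (-0.99) and from 66.6 to 21.7 in LM3 (-1.58), and FADS2, the other front-end desaturase, from 15.5 to 6.69 (-1.10) and from 5.43 to 2.22 (-1.0). LPIN1, a phosphatidate phosphatase, went from 6.79 to 3.27 (-0.86) and from 10.6 to 3.86 (-1.25). Outside the naming rule, MID1IP1 rose in both lines (0.55 and 0.32, or 0.21 in LM3 with quantile normalization), and ME1 rose in HepG2 (0.39) and fell in LM3 (-0.16). The LM3 call of ME1 was lost with quantile normalization (-0.10), with median-of-ratios scaling (-0.05) and without any 1 of the LM3 siFASRL libraries. With 1 LM3 library left out, the ME1 effect lay between -0.186 and -0.122. GPAM, which opens glycerolipid synthesis, fell in HepG2 (-1.33) and did not pass in LM3 (-0.09, adjusted p = 0.118), where it passed as a rise with quantile normalization (0.17). Of 12 promoters found, ME1 and MID1IP1 held TCACCCCA.

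ATF6 targets and ER chaperones had 20 genes, of which 11 were listed and tested. All 11 were lower in HepG2 (median log2 fold change -0.74) and 10 of 11 in LM3 (median -0.73). These genes fell in the same libraries in which ATF6 mRNA rose and ATF6B mRNA fell. PDIA4, a protein disulfide isomerase, averaged 71.2 with siNC and 35.5 with siFASRL in HepG2 (-0.98), and 68.1 and 27.5 in LM3 (-1.28). PDIA6, of the same family, went from 222 to 97.9 (-1.17) and from 139 to 83.4 (-0.73). SDF2L1 went from 18.3 to 12.3 (-0.56) and from 23.0 to 10.7 (-1.01), and its HepG2 value was -0.36 without siFASRL replicate 1. MANF, a secreted ER stress protein, went from 49.4 to 28.9 (-0.75) and from 54.7 to 32.3 (-0.74). SEL1L, of ER-associated degradation, was the exception in LM3 (-0.09, adjusted p = 0.239), named after its value was seen.

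Of the 10 promoters found for this list, 4 held the ER stress response element, which 0.0806% of all promoters hold. The list was chosen as known ATF6 targets and ER chaperones, so a higher share follows from that choice and is a description only. The 5 matches are shown with 12 bases on each side, on the strand of the gene, and capitals mark the whole element. A match on the other strand reads from CGTGG to ATTGG. HSPA5 (BiP) is at chr9:125241379-125241421 (minus strand), HSP90B1 at chr12:103930204-103930246 and chr12:103930309-103930351 (plus), CALR at chr19:12938372-12938414 (plus) and XBP1 at chr22:28800591-28800633 (minus), all in GRCh38.p14.
HSPA5: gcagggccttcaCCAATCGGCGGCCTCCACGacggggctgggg
HSP90B1, distal: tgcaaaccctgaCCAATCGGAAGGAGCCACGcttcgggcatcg
HSP90B1, proximal: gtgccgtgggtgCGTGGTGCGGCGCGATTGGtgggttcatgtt
CALR: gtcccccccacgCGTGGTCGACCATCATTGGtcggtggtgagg
XBP1: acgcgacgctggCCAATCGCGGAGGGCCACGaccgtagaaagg

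Of the 11 tested genes of the list 10 were lower in both lines, among them all 4 of these genes. Their log2 fold changes in HepG2 were -0.36 for HSPA5, -0.78 for HSP90B1, -0.47 for CALR and -0.83 for XBP1. In LM3 they were -0.72, -0.64, -0.89 and -0.28, the last -0.16 with median-of-ratios scaling. These 4 were named for their promoters, after their values were seen.

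**Figure D4:**
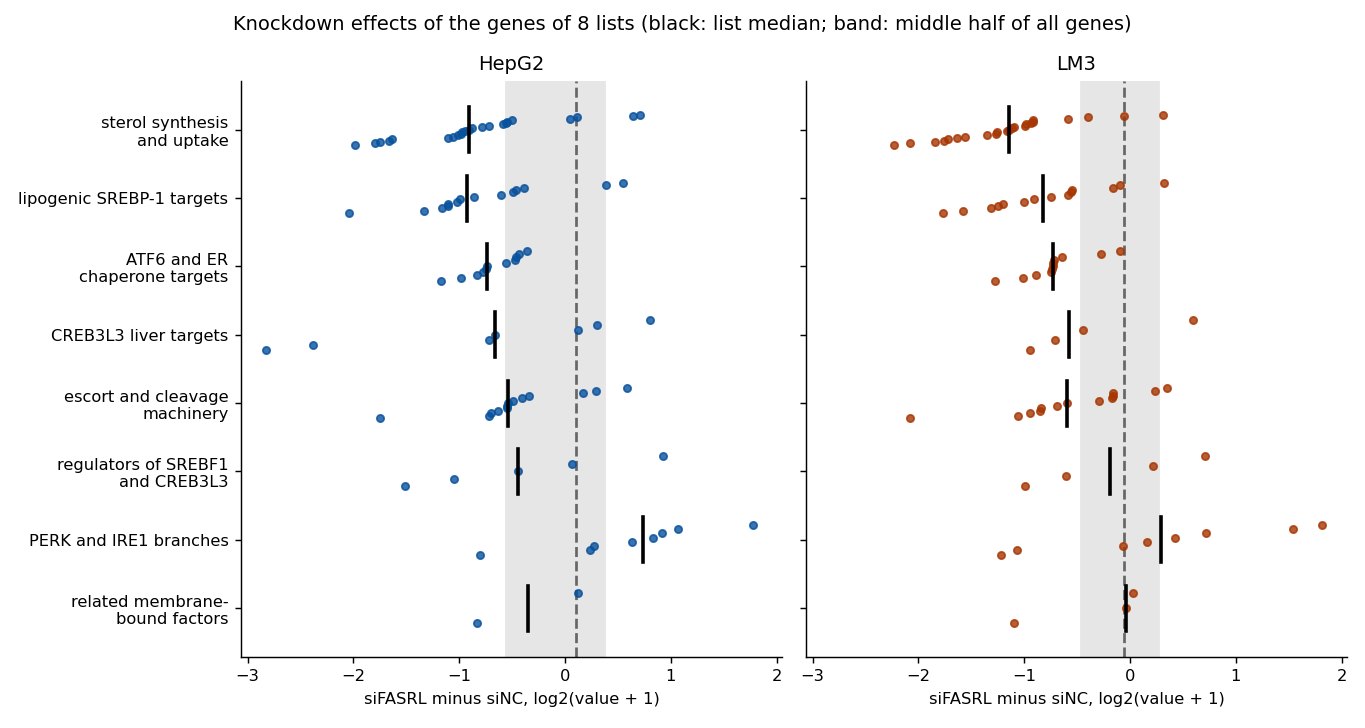
Knockdown effect of each gene of the 8 lists in HepG2 (left) and LM3 (right), siFASRL minus siNC on log2(value + 1). Points are genes, black bars list medians, the dashed line the median of all genes tested and the grey band their 25th to 75th percentile. The sterol list has its median at -0.91 in HepG2 and -1.14 in LM3, and the PERK and IRE1 list lies mostly to the right of 0.

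The liver targets of CREB3L3 had 12 genes, of which 7 were listed and tested in HepG2 and 4 in LM3. In HepG2 4 were lower and 2 higher, and the median log2 fold change was -0.66. In LM3 3 were lower and 1 higher, with a median of -0.58. HAMP (hepcidin) averaged 274 with siNC and 37.7 with siFASRL in HepG2 (-2.83, SE 0.0618, adjusted p = 3.24e-09). APOA5, an apolipoprotein of triglyceride metabolism, went from 5.51 to 0.250 in HepG2 (-2.38, SE 0.0905, or -4.06 with 0.1 added). APOA5 passed the filter on low values through its siNC libraries alone, and it is among the 4 lower genes counted in HepG2. APOC2, the activator of lipoprotein lipase, went from 87.0 to 54.9 (-0.66). These 3, named after their values were seen, averaged at most 0.0830 in the LM3 groups and were not tested there. Most hepatocyte markers were near 0 in LM3 as well, and a link to the level of CREB3L3 was not tested. CIDEC, a lipid droplet protein, rose in both lines, from 4.39 to 8.39 (0.80) and from 1.87 to 3.36 (0.59, or 0.96 with quantile normalization). PCK1, of gluconeogenesis, rose in HepG2 (0.30) and fell in LM3 (-0.71), with 0.55 and -0.37 after quantile normalization. INSIG2 fell in both (-0.72 and -0.94), and CPT1A, of fatty acid oxidation, did not pass in HepG2 (0.12, adjusted p = 0.0593) and fell in LM3 (-0.44). It passed in HepG2 with quantile normalization or without siNC replicate 2 (0.14 in each).

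The escort and cleavage machinery had 21 genes, with 13 listed and tested in both lines. In each line 10 were lower, and the same 10 were lower in both, with medians of -0.54 in HepG2 and -0.60 in LM3. In LM3 8 were lower with quantile normalization, with median-of-ratios scaling or without siFASRL replicate 1. INSIG1 and INSIG2, given above, belong here too. SEC24D, of the COPII coat that carries these factors out of the ER, went from 20 to 13.9 in HepG2 (-0.49) and from 23.9 to 10.9 in LM3 (-1.06). WFS1, an ER membrane protein that restrains ATF6, went from 30.4 to 18.4 (-0.70) and from 15.4 to 8.18 (-0.84). Outside the naming rule, SEC13 (0.59 and 0.35) and FBXW7 (0.29 and 0.24, or 0.55 and 0.61 with quantile normalization) rose in both lines. ERLIN2 rose in HepG2 (0.17, or 0.28 with quantile normalization) and did not pass in LM3 (-0.16, adjusted p = 0.109). Its HepG2 call was lost without any of HepG2 siFASRL replicates 2 and 3 or HepG2 siNC replicates 1 and 3. With 1 HepG2 library left out, the ERLIN2 effect lay between 0.129 and 0.211.

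Regulators of SREBF1 and CREB3L3 transcription had 7 genes, of which 5 were listed. In HepG2 3 of 5 were lower and 1 higher, and in LM3 2 of 4 were lower and 2 higher, with medians of -0.45 and -0.19. HNF4A, which drives CREB3L3 in liver, fell from 26.2 to 12.1 in HepG2 (-1.05, SE 0.0726) and from 14.3 to 6.71 in LM3 (-1.0, SE 0.0743). RXRA fell in both lines (-0.45 and -0.61), and its partner NR1H2, the liver X receptor beta, rose in both (0.92 and 0.71). PPARGC1A did not pass in HepG2 (0.07, adjusted p = 0.288) and rose in LM3 (0.22, adjusted p = 0.02), a call lost without any of LM3 siFASRL replicates 1 (0.21), 2 (0.22) and 3 (0.23) or LM3 siNC replicate 2 (0.14). With quantile normalization it passed in both lines (0.27 and 0.46). NR0B2, outside the naming rule, fell from 15.9 to 4.96 in HepG2 (-1.51) and averaged at most 0.0830 in LM3.

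The PERK and IRE1 branches, the arms of the ER stress response that do not use membrane-bound factors of this kind, had 11 genes with 8 listed and tested. EIF2AK3 (PERK) and ERN1 (IRE1) were not analysed here, and XBP1, the substrate of IRE1, is in the list of ATF6 targets and was lower in both lines. In HepG2 7 were higher and 1 lower, and the median log2 fold change was 0.73. In LM3 5 were higher and 2 lower, with a median of 0.29. PPP1R15A (GADD34) averaged 13.5 with siNC and 48.5 with siFASRL in HepG2 (1.77, SE 0.0771), and 9.16 and 34.7 in LM3 (1.82, SE 0.0792). ATF3 went from 4.56 to 9.46 (0.91) and from 9.69 to 30.1 (1.54), and ATF4 from 134 to 282 (1.06) and from 133 to 218 (0.72). ASNS, asparagine synthetase, fell in both lines, from 12.9 to 6.96 (-0.80) and from 15.7 to 6.96 (-1.07). Outside the naming rule, SESN2 rose in HepG2 (0.23, or 0.36 with quantile normalization) and fell in LM3 (-1.22), and TRIB3 rose in HepG2 (0.83) and did not pass in LM3 (-0.06, adjusted p = 0.672), where it passed without siNC replicate 1 (-0.23).

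Of 3 related membrane-bound factors outside the membership, MYRF fell in both lines, from 14.0 to 7.45 in HepG2 (-0.83) and from 54.0 to 24.7 in LM3 (-1.09). NFE2L1 did not pass in HepG2 (0.12, adjusted p = 0.110) or in LM3 (0.02, adjusted p = 0.684), where it passed with median-of-ratios scaling (0.14). CREB3L1 averaged 0.553 and 0.153 in the HepG2 groups, where it was not tested, and 1.05 and 0.993 in LM3 (-0.04, adjusted p = 0.590), where it passed as a rise with quantile normalization (0.33). The list median was -0.35 over 2 genes in HepG2 and -0.04 over 3 genes in LM3.

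**Figure D5:**
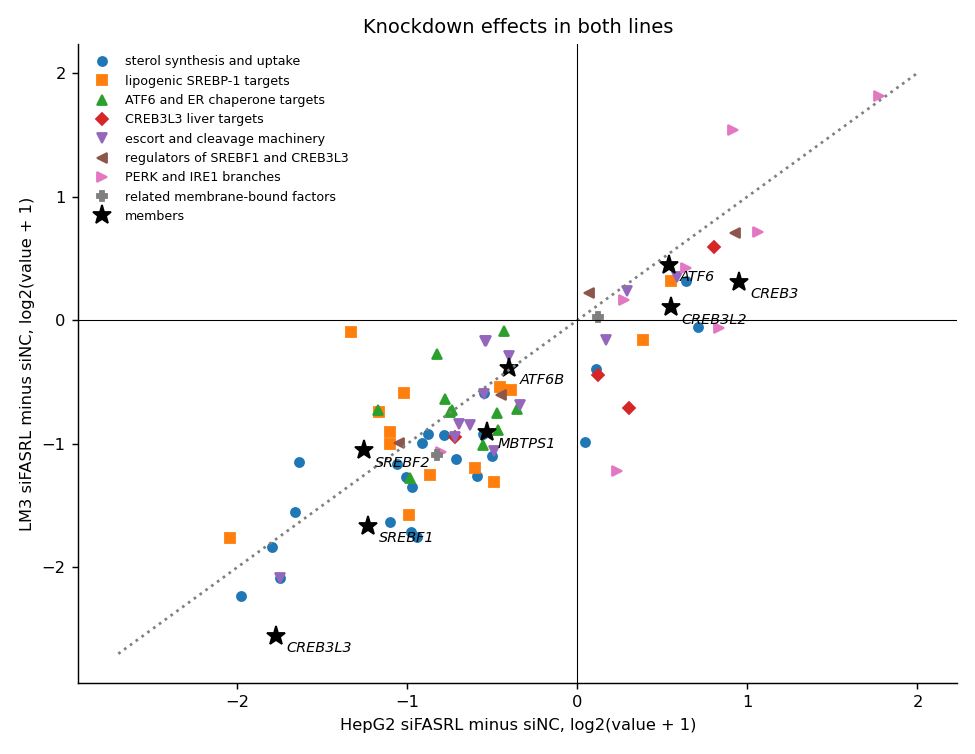
Knockdown effect in HepG2 (horizontal) against LM3 (vertical), both siFASRL minus siNC on log2(value + 1), for the genes of the 8 lists tested in both lines and the 8 members (stars). The dotted line marks equal effects. SREBF1 is at -1.23 and -1.66, below the line, and SREBF2 at -1.26 and -1.05, above it.

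Genes whose values across libraries ran most like those of CREB3L3 were found by Pearson's r on log2(value + 1) over the 12 libraries, which fall into 4 groups, so that r follows mainly the group means. The 5 highest were OTULINL (r = 0.995), SLC6A9 (0.995), DDB2 (0.994), PHLDB1 (0.992) and BDH1 (0.991). OTULINL averaged 9.27 and 3.54 with siNC and siFASRL in HepG2, and 19.5 and 5.47 in LM3, so that LM3 siNC was highest, as for CREB3L3. DDB2, a DNA damage binding protein, averaged 27.8 and 18.9 in HepG2 and 42.4 and 22.8 in LM3. For SREBF1 the 5 highest were SYBU (0.996), ASNS (0.994), DAB2IP (0.993), SEPTIN5 (0.993) and ANXA9 (0.993). ASNS averaged 6.96 in the siFASRL groups of both lines, and SREBF1 averaged 22 and 21.5 there. SREBF1 and SREBF2 had r = 0.964. CREB3L3 had r = 0.922 with SREBF1, at place 357 in likeness, and 0.906 with SREBF2, at place 464. It had r = 0.542 with MBTPS1 and 0.325 with ATF6B. ATF6 ran opposite to CREB3L3 with r = -0.912, and CREB3 with r = -0.805. CREB3L2, which differed mostly between the lines, had r = 0.180 with CREB3L3.

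Counts here refer to listed genes only. Among listed genes with a mean of at least 5, 5 of 6367 (0.08%) had a HepG2 log2 ratio from -0.20 to -0.04. The LM3 number was 578 of 5937 (9.74%), so small falls in HepG2 are nearly absent from the tables. How the listed genes were chosen is not known, and the shares of genes called, in both lines, are those of the listed genes. Adjusted p-values and the counts of the gene lists likewise rest on the listed genes only.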

How the data were processed

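RNA-seq was read from 12 libraries, 3 each of HepG2 and LM3 cells with siFASRL or siNC. The authors filtered reads with SOAPnuke, mapped them with HISAT2, aligned them to a reference gene set with Bowtie2 and computed expression per gene with RSEM. The deposited values are RSEM expression levels with 2 decimals, and whether they are FPKM or TPM is not given in the sources used here, nor whether counting used strand. They are not counts, so the depth is unknown. The submitters' processing notes name hg19. Gene names, neighbours, promoters and microRNAs came from RefSeq (GRCh38.p14) and GENCODE v29. Another 6 columns in 1 table repeat the values of used columns and were not used.

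The members and lists were chosen with earlier results of these data known. Groups came from the sample labels. The siNC count was planned over all 8 listed members, and CREB3L3 was left out of it later because its siNC values took part in its choice. After adding 1 and taking log2, the values were tested with limma 3.58.1 (R 4.3.3). A gene entered a fit if 3 or more of its libraries had a value of 1 or above, and p values were adjusted by Benjamini-Hochberg over all genes tested in that fit. Knockdown effects were fitted on the 6 libraries of each line, and the interaction and the siNC difference on all 12. The second threshold was an absolute log2 fold change of 1. The fit was tested on simulated data. The alternatives were a pseudocount of 0.1, no filter on low values or a filter at 5, quantile normalization, median-of-ratios scaling, a replicate block, 1 fit of all 12 libraries, and each replicate left out in turn. Tables were read with pandas 2.3.3 and drawn with matplotlib 3.10.9 in Python 3.11.15. Of the gene symbols, 17 had become dates and were restored from gene IDs.

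Named genes were all members, of each list the 4 tested genes with the largest absolute mean log2 fold change over both lines, the 5 genes most correlated with CREB3L3 and the 5 with SREBF1, and the cell type markers. Other list genes were named after their values were seen, beside the counts of their lists or for the motifs in their promoters.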

Additional observations from a re-analysis of the deposited data

Results flagged for a closer look

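Effects of named genes that differed between HepG2 and LM3, by the interaction term of limma at an adjusted p under 0.05, are given as the LM3 effect minus the HepG2 effect on log2(value + 1). Of 52 members and list genes named in the text and tested in both lines, 32 differed, 4 of them members. Over all 7349 genes tested in both lines the share was 42.5%. Of the 52, 17 were named after their values were seen, some of them where the lines disagreed, and 14 of these 17 differed, so the count is no result about the named genes. CREB3L3 was left out because its effects chose it.

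Among the members the difference was -0.64 for CREB3, -0.45 for CREB3L2, -0.43 for SREBF1 and -0.37 for MBTPS1 (-0.22 with quantile normalization). SREBF1 and MBTPS1 fell in both lines and further in LM3, while CREB3 rose in both and less in LM3.

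Among the sterol genes the difference was -0.25 for MSMO1, -0.34 for INSIG1, -0.32 for PMVK, -0.77 for NPC1, -0.51 for CYP51A1 and -0.67 for MVK. Among the lipogenic genes it was 0.28 for SCD, -0.58 for FADS1, -0.39 for LPIN1, -0.54 for ME1 and 1.24 for GPAM. GPAM fell in HepG2 and did not pass in LM3, and the LM3 call of ME1 was lost under several alternatives. Among the chaperone genes it was -0.29 for PDIA4, 0.44 for PDIA6, 0.34 for SEL1L, -0.37 for HSPA5, -0.43 for CALR and 0.55 for XBP1.

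Among the liver targets of CREB3L3 it was -1.02 for PCK1 and -0.56 for CPT1A. Genes tested in 1 line only, such as HAMP and APOA5, were left out, since a value near 0 in the other line sets the difference.

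In the escort and cleavage machinery it was -0.57 for SEC24D, -0.24 for SEC13 and -0.33 for ERLIN2. In the PERK and IRE1 branches it was 0.63 for ATF3, -0.27 for ASNS, -0.35 for ATF4, -1.45 for SESN2 and -0.90 for TRIB3. SESN2 rose in HepG2 and fell in LM3. MYRF, a related factor, had -0.27.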

How the results depend on the processing

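The knockdown effects of SREBF1 and SREBF2 kept their direction and an adjusted p under 0.05 under every alternative. SREBF1 lay between -1.32 and -1.18 in HepG2 and between -1.71 and -1.55 in LM3, and SREBF2 between -1.33 and -1.21 and between -1.10 and -0.94. The members past both thresholds in LM3 went from 2 to 1 with median-of-ratios scaling, where SREBF2 was at -0.94. In HepG2 this number was 2 or 3, the members with an interaction 4 or 5, and those other than CREB3L3 with a siNC difference 4 to 6. With a replicate block the SREBF1 effects were -1.23 and -1.66, the SREBF2 effects -1.26 and -1.05, the members past both thresholds 2 in each line, the members with an interaction 4, and genes called went from 7257 to 7356 in HepG2 and from 5790 to 5691 in LM3. Same-numbered libraries did not deviate together throughout (r = 0.325, 0.377 and -0.208 in HepG2, and -0.082, 0.096 and -0.167 in LM3). In HepG2 replicates 1 and 2 and in LM3 replicate 2 the siFASRL library correlated best with the siNC library of its own number. The other replicates did not, so a pairing by number was neither shown nor excluded. No called value changed its direction under any alternative run. Depth is unknown, so no counting error is given.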
